A study of Mus musculus with 6 samples.

Results

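Ribosome footprints of 8 ubiquitin genes were followed in mouse oocytes through meiotic maturation: *Uchl1*, *Skp1a*, *Cul1*, *Rbx1*, *Btrc*, *Fbxw11*, *Rfpl4* and *Rnf114*. The genes were chosen by name, from the 22416 genes of the FPKM table, with results of these data already known. Their own values are therefore given as a description without p-values. An FPKM value is the number of footprints divided by the coding length of the gene and by the depth of its library. It reflects both the amount of an mRNA and its translation. The study reports that maternal mRNA is degraded during maturation. No mRNA levels were used here, so a change in mRNA amount and a change in translation cannot be told apart.

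Footprints were sequenced by Ribo-lite, a ribosome profiling method for few cells, from 500 oocytes in each of 6 libraries. There were 3 groups with n = 2 libraries each. WT_FGO were fully grown oocytes at the germinal vesicle (GV) stage, WT_MII were control oocytes matured to metaphase II (MII), and Treat_MII were treated oocytes at MII. All 3 groups carried the wild-type genotype. Per the study's methods the oocytes came from 4-week-old C57BL/6 females given 5 IU of pregnant mare serum gonadotropin (PMSG) 44 h earlier. Those of the MII groups were then cultured to MII outside the ovary. The labels name the treatment of Treat_MII only as treated. In the study's text it is BYBX, a ligand of RNA G-quadruplexes, which are folds of G-rich RNA. Its methods give the solvent DMSO to GV and MII controls. The study also reports that BYBX lowered polar body emission, and that treated oocytes reaching MII had abnormal spindles. The labels do not say how treated oocytes were staged, so effects of the ligand and of impaired maturation cannot be told apart. Each library pooled many oocytes, so a lower level in every oocyte and a loss from some of them cannot be told apart. Nothing in the labels says that the libraries of a group came from separate sets of mice, so the spread between them may be technical.

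Ubiquitin is attached to proteins by a chain of E1, E2 and E3 enzymes, and the E3 ligase chooses the substrate. In the SCF ligase, SKP1 links an exchangeable F-box protein to the scaffold CUL1, and RBX1 is the RING subunit that recruits the loaded E2. BTRC and FBXW11 are the β-TrCP F-box proteins, which recognise phosphorylated degrons. In meiosis, β-TrCP is known for the destruction of EMI-type inhibitors of the anaphase-promoting complex. UCHL1 is a ubiquitin C-terminal hydrolase and one of the most abundant proteins of the mouse oocyte. RFPL4 is a RING finger-like protein of the germ line that binds cyclin B1 and proteasome components. RNF114 is a RING ligase supplied by the mother to the early embryo.

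At the GV stage *Uchl1* and *Skp1a* were the 2 highest genes of the whole table in both libraries. After maturation both were several-fold lower, and *Rfpl4* had taken the place of the highest of the 8 genes. *Cul1* and *Rfpl4* were higher in MII than in GV oocytes, while *Uchl1*, *Skp1a*, *Rnf114*, *Btrc* and *Fbxw11* were lower and *Rbx1* overlapped between the groups. In treated MII oocytes *Skp1a*, *Btrc* and, by a small margin, *Uchl1* lay between the control MII and the GV libraries. *Cul1* lay farther from the GV libraries, and the other members overlapped control MII. The position between was not particular to these genes. The median of 12 oocyte markers was 2487 FPKM in WT_FGO, 554 in WT_MII and 1277 in Treat_MII. With treatment no gene of the table was called.

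The 3′-UTR ends of the genes were read with the members' levels already known. Cytoplasmic polyadenylation elements (CPEs) in this part of an mRNA are known to direct its translation during oocyte maturation. The motifs TTTTAT and TTTTAAT, the DNA letters of the CPE, were searched on the transcript strand in the last 200 bases of the annotated 3′-UTR of 1 coding transcript per gene (GENCODE M21). In *Rfpl4* there were 2 such motifs. *Cul1*, *Skp1a* and *Rbx1* had 1 each, and *Uchl1*, *Btrc*, *Fbxw11* and *Rnf114* had none of these letters in the window. Of the 12555 tested genes with a window of this length, 29.2% held at least 1 match. *Rfpl4* and *Cul1*, the 2 members higher at MII, both had a match, and of the 5 lower members *Skp1a* alone did. Whether the motifs bear on the levels was not tested, and the levels do not separate translation from mRNA amount. The 5 matches are printed, with the motif in capitals within 30 bases, to show where they lie. Positions are on the GRCm38 genome.
*Rfpl4*, chr7:5109910-5109939, minus strand, motif starting 62 bases before the transcript end: gaatgctttcctTTTTATttgctataatat
*Rfpl4*, chr7:5110009-5110038, minus strand, motif starting 162 bases before the end: aggaaatagcaTTTTAATataaagtattat
*Cul1*, chr6:47526016-47526045, plus strand, motif starting 113 bases before the end: gtgtttcatttTTTTAATgtgtgaaaataa
*Skp1a*, chr11:52246678-52246707, plus strand, motif starting 169 bases before the end: ggtatgtcatctTTTTATcatcattgttcc
*Rbx1*, chr15:81476331-81476360, plus strand, motif starting 28 bases before the end: ttcaaagttaaTTTTAATaaaaatatttat

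Across the other tested genes, a CPE match was present in 56.3% of the 501 genes called higher at MII with this window, in 22.6% of the 350 called lower and in 28.2% of the 11696 not called. The count was chosen after the members' motifs had been seen. *Cul1* also held 1 Pumilio-type motif (TGTANATA), which 8.0% of these windows had and no other member did. A match to letters is a description and not a measured binding site. No member held a G-quadruplex motif (4 stretches of 3 or more G, parted by loops of 1 to 7 bases) in its 5′-UTR, coding sequence or 3′-UTR, against 7.4%, 4.3% and 11.1% of all tested genes with such a part. All 8 windows held the polyadenylation signal AATAAA, which 68.9% of windows had. Otherwise the transcripts had little in common, with 3′-UTRs of 306 bases in *Uchl1* to 2311 bases in *Fbxw11* and coding sequences of 327 bases in *Rbx1* to 2331 bases in *Cul1*.

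*Uchl1* (chr5:66676091-66687234, plus strand) stood at 15010 and 13296 FPKM in WT_FGO, 2736 and 2680 in WT_MII, and 3203 and 3330 in Treat_MII. These values rested on 947 and 954, 302 and 414, and 710 and 614 recovered reads. It ranked 2 and 1 of all genes at the GV stage, 34 and 45 in control MII and 38 and 36 in treated MII. The 3 groups did not overlap. The mean was 5.23-fold lower in WT_MII than in WT_FGO, a difference of −2.38 ± 0.14 on the log2(FPKM + 1) scale (SE of the fit across all genes, n = 2 per group). Treat_MII exceeded WT_MII by 0.27 ± 0.14. The coding sequence had no 28-base word elsewhere in the genome, and the 5′ end of the gene overlaps the antisense gene *Uchl1os*.

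*Skp1a*, the adaptor of the SCF ligase (chr11:52231995-52246858, plus strand), was measured at 20329 and 13083 FPKM in WT_FGO, 1951 and 2186 in WT_MII, and 4179 and 4394 in Treat_MII. The reads were 1227 and 898, 206 and 323, and 886 and 775, and its ranks were 1 and 2, 57 and 55, and 27 and 25. The GV level was thus 8.08-fold above that of control MII oocytes (log2 difference −2.98 ± 0.23). The treated libraries both lay above both control MII libraries, by 1.05 ± 0.23 on the log2 scale and 2.07-fold in the means, and far below both GV libraries. Of its coding 28-base words, 29.9% were also found at 1 other locus, so some reads could belong to a copy of the gene.

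*Cul1*, the SCF scaffold (chr6:47453398-47526139, plus strand), moved in the opposite direction. Its level was 353 and 386 FPKM in WT_FGO, 1225 and 1537 in WT_MII, and 1592 and 1603 in Treat_MII. The mean of WT_MII was 3.73-fold that of WT_FGO, with a log2 difference of 1.89 ± 0.22. The treated libraries lay just above the controls, and the difference of 0.22 ± 0.22 was as large as its standard error. Its values rested on 3748 reads in all.

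*Rbx1*, the RING subunit (chr15:81466296-81476369, plus strand), was the least settled member of the SCF core. It had 707 and 189 FPKM in WT_FGO, 70.3 and 289 in WT_MII, and 254 and 105 in Treat_MII, on only 23 and 7, 4 and 23, and 29 and 10 reads. All 3 groups overlapped. The differences were −1.35 ± 0.92 at maturation and 0.19 ± 0.92 with treatment. The first was −0.40 and −2.30 without WT_FGO library 1 or 2 and −0.34 and −2.36 without WT_MII library 1 or 2, and the second ran from −0.82 to 1.21 when either MII group lost a library. Moreover, 75.0% of its coding 28-base words occur at 1 other locus, so its values depend on how the authors placed such reads.

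The ratio of *Skp1a* to *Cul1* therefore differed between the stages. At the GV stage the FPKM of *Skp1a* were 57.5 and 33.9 times those of *Cul1* in the same library. In WT_MII the ratio was 1.59 and 1.42, and in Treat_MII 2.62 and 2.74. The 3 groups did not overlap, and the treated libraries lay on the GV side of the controls. FPKM are per coding length, so these are ratios of footprint density and not of protein. *Uchl1* over *Rfpl4* showed a larger exchange than *Skp1a* over *Cul1*. It went from 60.9 and 40.9 in WT_FGO to 0.356 and 0.366 in WT_MII and 0.423 and 0.430 in Treat_MII.

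**Figure D1:**
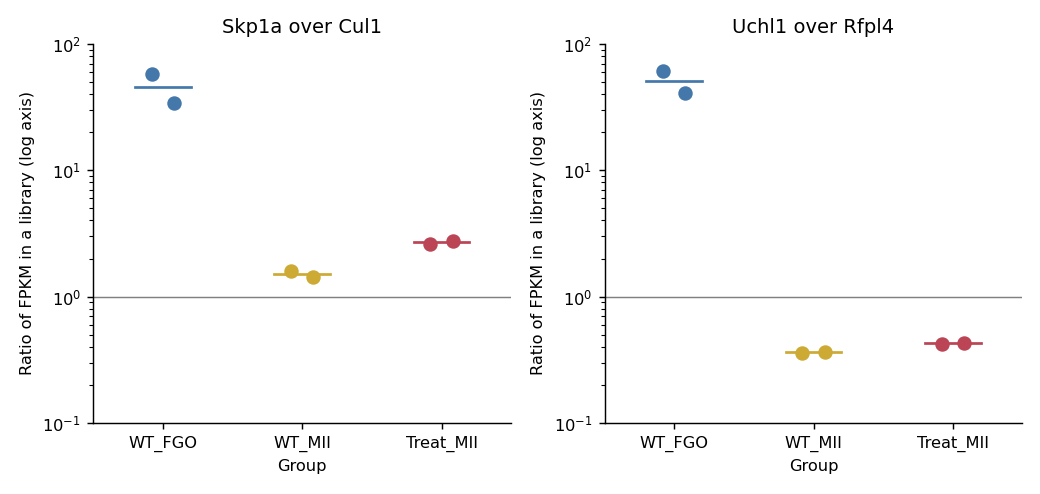
Ratio of the FPKM of 2 genes within each library (log axis) for the 3 groups, with points for libraries and bars for the means of n = 2. Skp1a over Cul1 ran from 33.9 and 57.5 in WT_FGO to 1.42 and 1.59 in WT_MII, with Treat_MII at 2.62 and 2.74; Uchl1 over Rfpl4 crossed 1 between WT_FGO and both MII groups.

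The β-TrCP genes were far lower. *Btrc* (chr19:45363734-45530013, plus strand) had 80.4 and 190 FPKM in WT_FGO, 17.2 and 14.4 in WT_MII, and 51.5 and 53.3 in Treat_MII. The reads were 16 and 43, 6 and 7, and 36 and 31. The 3 groups did not overlap, with control MII lowest and treated MII between control MII and GV. The log2 difference was −2.90 ± 0.56 at maturation and 1.67 ± 0.56 with treatment. The first was −3.51 without WT_FGO library 1 and −2.28 without library 2. From reads alone, the treated rate was 3.36 times the control rate, with an exact 95% counting interval of 1.84 to 6.64. This interval, like the later ones, pools the libraries of a group and covers counting error but not the spread between libraries. The treatment difference of *Btrc* was not called by limma.

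*Fbxw11* (chr11:32642724-32746816, plus strand), the other β-TrCP gene, was near the limit of detection. Its 17.8 and 26.1 FPKM in WT_FGO came from 3 and 5 reads, its 10.2 and 2.43 in WT_MII from 3 and 1, and its 13.5 and 10.2 in Treat_MII from 8 and 5. The GV libraries lay above all MII libraries, and the 2 MII groups met. The read rate at the GV stage was 3.93 times that of control MII, with an interval of 1.05 to 17.8, and the rate in treated over control MII was 2.12, with an interval of 0.65 to 8.93. On the log2 scale the differences were −1.87 ± 0.84 and 1.04 ± 0.84, and without WT_MII library 2 they shrank to −1.01 and 0.19. A difference with treatment was not detectable at this depth. *Btrc* exceeded *Fbxw11* in every library, by 1.69 to 7.28 times in FPKM, and the 2 coding sequences share no 28-base word, so reads of that length that match fully cannot be split between them.

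*Rfpl4* (chr7:5109787-5116950, minus strand) showed the greatest difference of the 8 genes. It stood at 246 and 325 FPKM in WT_FGO, 7681 and 7319 in WT_MII, and 7569 and 7750 in Treat_MII, on 20 and 30, 1091 and 1455, and 2159 and 1839 reads. Its rank went from 475 and 347 at the GV stage to 7 and 13 in control MII and 14 and 12 in treated MII. The mean was 26.3-fold higher in WT_MII than in WT_FGO (log2 difference 4.72 ± 0.19). Control and treated MII libraries overlapped, with a difference of 0.03 ± 0.19. By reads the treated rate was 1.02 times the control rate, with a counting interval of 0.97 to 1.08.

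*Rnf114* (chr2:167492645-167516173, plus strand) had 2392 and 1995 FPKM in WT_FGO, 565 and 738 in WT_MII, and 659 and 702 in Treat_MII, on 155 and 147, 64 and 117, and 150 and 133 reads. The GV libraries lay 3.37-fold above control MII in the mean (log2 difference −1.76 ± 0.23), and control and treated MII overlapped (0.08 ± 0.23). Its 5′ end overlaps the antisense gene *Spata2*. Whether the authors' counting used strand is not given in the sources used here, so reads from overlapping antisense genes at *Uchl1*, *Skp1a*, *Cul1*, *Btrc* and *Rnf114* cannot be told apart from those of the gene.

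**Figure D2:**
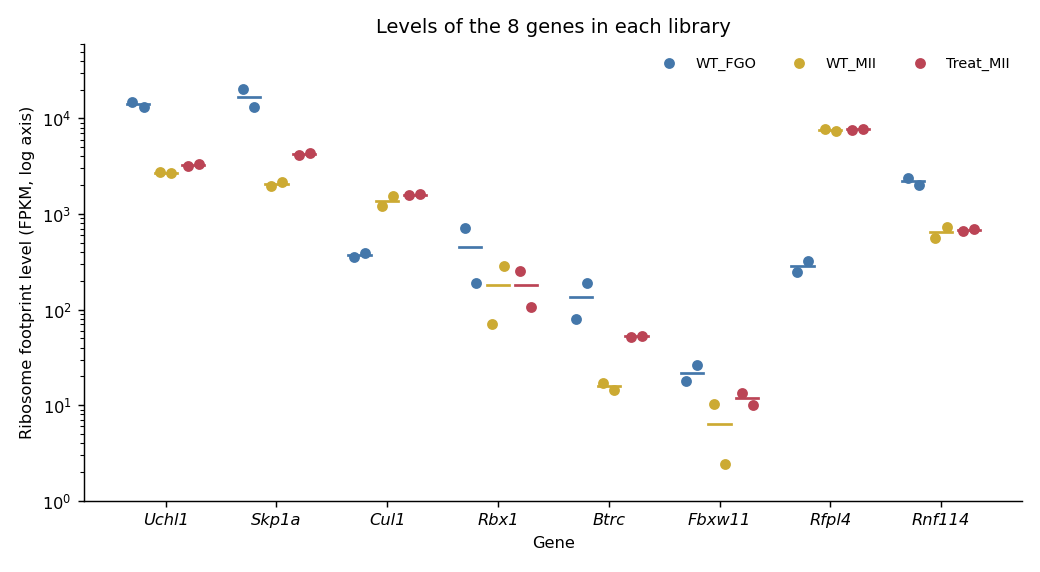
FPKM of the 8 genes (log axis) in each of the 6 libraries, with points for libraries and bars for the means of n = 2 per group. Uchl1 and Skp1a lie at 13083 FPKM or more in WT_FGO and at 4394 or less in every MII library, whereas Rfpl4 lies at 246 and 325 in WT_FGO and at 7319 or more in every MII library.

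The 8 genes together took 2.62% and 2.03% of the reads in WT_FGO, 1.30% and 1.37% in WT_MII, and 1.57% and 1.61% in Treat_MII. *Uchl1* and *Skp1a* made up 2.31% and 1.73% of the GV libraries, and 0.308% and 0.319% of the control MII libraries. *Rfpl4* alone made up 0.661% and 0.630% of the latter. Ordered by their mean at the GV stage, the genes ran *Skp1a*, *Uchl1*, *Rnf114*, *Rbx1*, *Cul1*, *Rfpl4*, *Btrc* and *Fbxw11*. *Skp1a* and *Uchl1* overlapped in their libraries, and the levels of *Cul1* and of *Rfpl4* lay within the range of *Rbx1*. In WT_MII the order was *Rfpl4*, *Uchl1*, *Skp1a*, *Cul1*, *Rnf114*, *Rbx1*, *Btrc* and *Fbxw11*, and in it no neighbours overlapped in their libraries. In Treat_MII *Skp1a* stood above *Uchl1*, without overlap.

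All 8 genes passed the filter of a mean of at least 1 FPKM, each with reads in every library. In the limma fit with Benjamini-Hochberg adjustment, 2 of them (*Rfpl4* and *Cul1*) were called higher in WT_MII than in WT_FGO, where 3.67% of the 15127 genes tested were called, and 4 (*Uchl1*, *Skp1a*, *Rnf114* and *Btrc*) were called lower, where 3.09% of all were. Both MII control libraries lay above both GV libraries for 2 members and below them for 5, against 15.3% and 25.8% of all genes tested. With treatment none of the 8 genes was called in either direction, and neither was any other gene (0% higher and 0% lower). Both treated libraries lay above both control MII libraries for 4 members (*Uchl1*, *Skp1a*, *Cul1* and *Btrc*) and below them for none, against 16.2% and 15.6% of all genes. Between Treat_MII and WT_FGO 2 members were called higher and 3 lower, where 2.86% and 1% of all genes were. The 6 member calls at maturation were lost, all of them, with only the compared groups in the fit and without either Treat_MII library, and 3 and 4 were left without WT_MII library 1 or 2. The 5 calls between Treat_MII and WT_FGO were reduced to 1 (*Rfpl4*) without either WT_MII or either Treat_MII library. Because the genes were picked with these results in view, nothing follows from these counts beyond the values themselves.

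**Figure D3:**
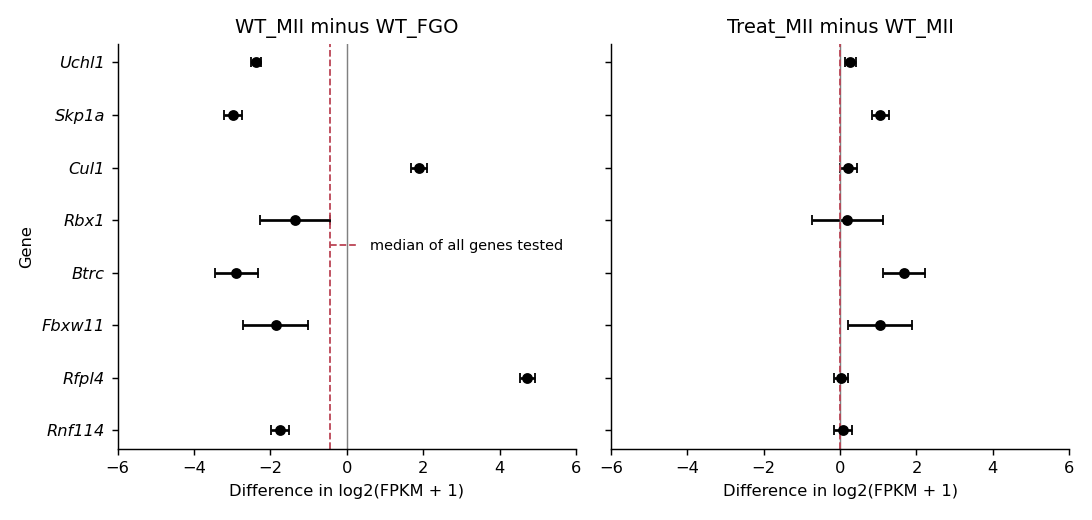
Differences in log2(FPKM + 1) of the 8 genes between control MII and GV oocytes (left) and between treated and control MII oocytes (right), with bars for the SE of the fit (n = 2 per group) and a dashed line at the median of all genes tested. Rfpl4 and Cul1 lie to the right at maturation with 4.72 and 1.89, and Btrc and Skp1a lie farthest to the right with treatment, at 1.67 and 1.05.

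The median difference of all genes tested was −0.44 at maturation, so part of a lower value is shared with the typical gene. Relative to the median log2 ratio of the genes, the differences at maturation were −1.92 for *Uchl1*, −2.52 for *Skp1a*, −1.29 for *Rnf114*, 2.35 for *Cul1* and 5.19 for *Rfpl4*. Centring changed none of these 5 directions. Treat_MII and WT_MII are both compared with the same GV libraries. Against WT_FGO the treated oocytes differed by −2.11 for *Uchl1*, −1.93 for *Skp1a*, −1.68 for *Rnf114*, −1.22 for *Btrc*, 2.11 for *Cul1* and 4.75 for *Rfpl4*. The value of *Btrc* was −1.84 without WT_FGO library 1 and −0.61 without library 2.

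For each member with at least 60 reads in all, the 3 genes with the closest pattern were found by the Euclidean distance of log2(FPKM + 1), centred per gene, over the 6 libraries, among 2705 other genes with as many reads. *Rfpl4* lay nearest to *Btg4*, which encodes the adaptor of the CCR4-NOT deadenylase in maternal mRNA clearance (distance 0.26), followed by *Alg10b* and *Tiparp* (0.29 each). *Skp1a* lay nearest to *Fbxw24*, an F-box gene of the oocyte Fbxw cluster (0.39), then *Puf60* and *Ndufa9*. *Btrc* also lay nearest to a gene of that cluster, *Fbxw25* (0.62), then *Tdrd5* and *Kcnv2*. Its distance was the largest to a first neighbour among the members compared, and *Btrc* had only 13 reads in WT_MII. *Uchl1* followed *Synpo2l* (0.21), *Ddx11* and *Oog2*. *Cul1* followed *Anxa7* (0.14), *Bpgm* and *Rbm26*. *Rnf114* followed *Cox6c* (0.30), *Uhrf1*, which maintains DNA methylation, and *Wdr82*. *Rbx1* followed *Bud31* (0.32), *Capn9* and *Slc38a3*, although its libraries overlapped between all groups. *Fbxw11*, with 25 reads, was not compared. Every gene has a nearest neighbour by this rule, and whether any of these genes are linked was not tested.

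The rest of the ubiquitin system was described from 8 lists of 244 other genes, of which 226 were tested. At maturation 23 of these rose and 11 fell (limma, adjusted p under 0.05), against 3.67% and 3.09% of all genes. The lists were chosen with earlier results of these data known, so their counts beside these shares are a description and no test of an excess. With treatment none of the 226 was called by limma, with or without precision weights from the reads. Without adjustment, 13 were higher and 2 lower at p under 0.05, as were 576 and 306 of all genes tested. Against WT_FGO the treated oocytes had 19 higher (8.41%) and 2 lower (0.885%), where 2.86% and 1% of all genes were called. The total of 34 at maturation became 20 and 18 without WT_MII library 1 or 2, and 0 without either Treat_MII library.

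Among the 11 tested partners and cores of other cullin ligases, 2 rose at maturation and 1 fell. *Eloc*, the elongin C gene, whose product is the SKP1-like adaptor of CUL2 and CUL5 ligases, had 2770 and 2087 FPKM in WT_FGO against 437 and 399 in WT_MII and 646 and 731 in Treat_MII. It fell at maturation, as *Skp1a* was lower, by 2.52 ± 0.24 on the log2 scale (adjusted p = 0.0044). *Cul5*, a scaffold like CUL1, had 8.17 and 3.59 FPKM in WT_FGO, from 3 reads in all, and 58.4 and 68.4 in WT_MII, so it rose with a read ratio of 11.2 and an interval of 3.67 to 55.7 (adjusted p = 0.026). *Ddb1*, the adaptor of CUL4 ligases, rose from 190 and 262 to 751 and 898 FPKM (adjusted p = 0.017). The median of the list was −0.01 at maturation, and −0.32 without the 1 gene for which no bound could be set.

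CUL1 is activated by attachment of NEDD8, which the COP9 signalosome removes. Of the 22 tested genes of this cycle, 2 rose and 5 fell at maturation, and the list's median difference was −0.84. *Uba3*, the catalytic subunit of the NEDD8-activating enzyme, had no read in either GV library and 163 and 242 FPKM in WT_MII (41 and 85 reads), at least 10.3-fold higher against a floor of 3 reads per library (adjusted p = 0.0019). *Dcun1d5*, a neddylation co-factor, rose from 21.4 and 47.1 to 422 and 214 FPKM (adjusted p = 0.023).

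The genes that fell were *Nedd8* itself and the signalosome subunits *Cops3*, *Cops5*, *Cops6* and *Cops7a*. *Cops3* fell from 275 and 166 to 13.5 and 6.42 FPKM (59 and 5 reads in the groups, adjusted p = 0.011). *Cops6* fell from 176 and 246 to 17.8 and 4.23 (adjusted p = 0.024), and *Cops7a* from 97.7 and 140 to 13.97 and 14.97 (adjusted p = 0.043). In Treat_MII *Cops3* stood at 62.6 and 48.4 FPKM and *Cops6* at 85.6 and 49.7, above both control libraries in each case, but neither difference was called (adjusted p = 0.71 for both). The list's median difference with treatment was 0.75, and that of all genes was 0.

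Among 28 tested E1 and E2 enzymes, none rose at maturation and 3 fell. *Ube2a*, a RAD6-type E2, fell from 140 and 164 FPKM to 0 and 9.5 in WT_MII, where a single read remained (read ratio 27.5 with an interval of 4.18 to 1163, adjusted p = 0.044). *Ube2s*, the chain-extending E2 of the anaphase-promoting complex, fell from 134 and 93.9 to 7.63 and 0, again with 1 read in WT_MII (adjusted p = 0.044). *Ube2w* was listed at 0 in both control MII libraries, with 55.0 and 16.1 FPKM in WT_FGO and 15.7 and 37.7 in Treat_MII (adjusted p = 0.037 at maturation). *Ube2k* did not pass at maturation (adjusted p = 0.16) but was higher in Treat_MII than in WT_FGO, at 1293 and 1064 against 300.4 and 295 FPKM (adjusted p = 0.039). The control MII level of *Ube2k* was 434 and 816.

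Of the ubiquitin precursor genes, 2 of 4 could be tested. *Ubb*, a polyubiquitin gene, fell from 707 and 499 FPKM to 59.6 and 23.7 in WT_MII (log2 difference −3.94 ± 0.54, adjusted p = 0.014) and stood at 95.7 and 63.4 in Treat_MII. None of the 3 tested relatives of *Uchl1* was called. *Uchl3* had 48.1 and 74.0 FPKM in WT_FGO and 131 and 216 in WT_MII (adjusted p = 0.11), and *Uchl5*, the proteasome-associated member of the family, had 10.5 and 64.4 and then 0 and 8.54 (adjusted p = 0.26). Neither approached the level of *Uchl1* in any library.

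The other 57 deubiquitinases had 4 genes that rose and 1 that fell, with a median difference of −0.61. *Usp28* rose from 15.5 and 10.9 to 260 and 321 FPKM (log2 difference 4.37 ± 0.38, adjusted p = 0.0033), *Usp37* from 7.22 and 6.35 to 74.3 and 64.9 (adjusted p = 0.021), and *Usp19* from 50.5 and 93.3 to 566 and 666 (adjusted p = 0.0082). *Usp9x* also rose. *Usp16*, with 55.7 and 18.8 FPKM in WT_FGO and no read in WT_MII, was at least 5.92-fold lower (adjusted p = 0.048). The treated values of *Usp28*, *Usp19* and *Usp37* were 307 and 305, 659 and 678, and 50.4 and 59.3 FPKM.

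RING and HECT ligases were the list with the most rises: 12 of 57 tested genes (21.1%) rose and none fell, with a median difference of 0.99. Of all genes tested, 3.67% were called higher and 3.09% lower. The share called higher was 7.02% in the deubiquitinase list, also with 57 tested genes, and 18.2% in the smaller cullin list. *Mdm2*, the ligase for p53, had no read in either GV library and 178 and 192 FPKM in WT_MII, at least 9.07-fold higher (adjusted p = 0.0018). *Trim75* rose from 7.57 and 39.9 to 389 and 544 FPKM (adjusted p = 0.022). *Ube3c*, a HECT ligase of the proteasome, was at 0 in both GV libraries and at 22.3 and 19.9 in WT_MII, at least 2.30-fold higher (adjusted p = 0.027).

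Among 46 tested F-box genes outside the oocyte cluster, 3 rose and none fell. *Fbxo33* rose from 12.1 and 15.99 to 121 and 146 FPKM (adjusted p = 0.012), *Fbxl6* from 39.6 and 17.4 to 185 and 143 (adjusted p = 0.038), and *Fbxo28* from 19.2 and 25.3 to 132 and 90.2 (adjusted p = 0.045). The median of this list was 0.10, and −0.24 with genes at 0 reads in a group at their bound or, where they had none, left out.

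**Figure D4:**
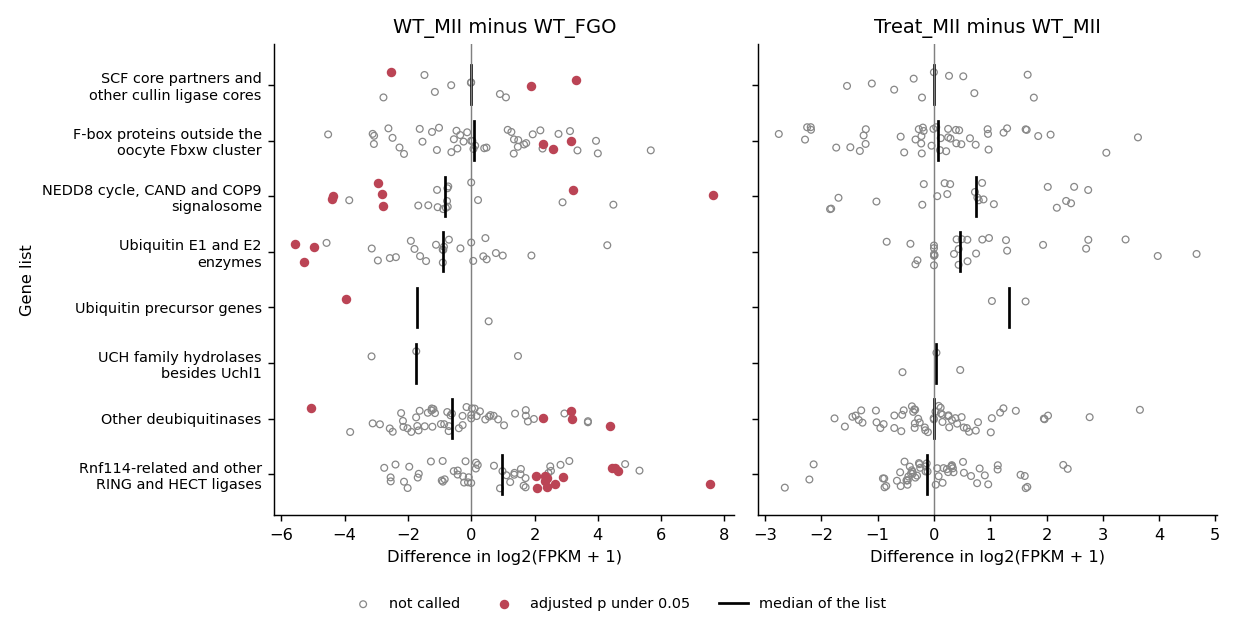
Difference in log2(FPKM + 1) of every tested gene of the 8 lists at maturation (left) and with treatment (right), with filled points for an adjusted p under 0.05 in the limma fit, open points for the others and a black bar for the list's median. At maturation 23 genes rose and 11 fell, and the 12 called RING and HECT ligases all lie to the right; with treatment no gene was called.

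Library depth bounded the lowest levels that could be read, and each group had only n = 2 libraries. The values corresponded to 94309 to 107251 reads in WT_FGO, 164972 to 230907 in WT_MII and 275604 to 331304 in Treat_MII, so depth differed with the group. For a gene with 1 kb of coding sequence, 1 read was worth 10.6 FPKM in the shallowest library and 3.02 in the deepest. Of 12 oocyte markers, 11 or more were detected in each group, and their summed level was 32430 to 49136 FPKM in WT_FGO, 20415 to 24689 in WT_MII and 30379 to 31714 in Treat_MII. *Oosp1* alone stood at 122 and 185 FPKM in WT_FGO, 11263 and 15029 in WT_MII, and 14459 and 15094 in Treat_MII, and the median marker stood at 2487, 554 and 1277 FPKM in the 3 groups. The 16 granulosa and cumulus markers summed to 880 to 1858, 681 to 2384 and 539 to 566 FPKM, with *Hsd17b1* or *Serpine2* highest in each group. *Hsd17b1* had 729.5 and 488 FPKM in WT_FGO, 1956 and 255.98 in WT_MII, and 202 and 204 in Treat_MII, and *Serpine2* had 8.9 and 125, 158 and 255, and 226 and 213. *Foxl2*, *Fshr* and *Amh* were at most 33.2, 13.5 and 196 FPKM, each in WT_FGO library 2, against 0, 0 and 57.4 in WT_FGO library 1. *Inha* reached 747 FPKM in WT_FGO library 2 and at most 29.0 in any other. *Inhba*, *Cyp11a1* and *Lhcgr* had 139, 66.3 and 13.3 FPKM in WT_FGO library 2 and 0 in WT_FGO library 1. *Hsd17b1*, *Cyp19a1* and *Kitl* were instead higher in WT_FGO library 1. The part of these differences in the results was not tested.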

How the data were processed

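Ribo-lite libraries of mouse oocytes (2 per group) were analysed. The deposited values are FPKM, which the authors computed per library, and the submitters' processing notes name cutadapt 1.14, Bowtie2 2.2.2, STAR 2.5.3a and the mm10 build. The counting program, the annotation and the handling of strand and molecular identifiers are not given in the sources used here. No spike-in scaling is stated, so a level is relative to its own library.

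The first of each repeated gene name was kept, which dropped 26 of 22442 entries. FPKM times the union coding length (GENCODE M21, GRCm38) came to whole reads (within 0.02) in every library for 96.4% of genes. These reads served for depth, floors (3 reads per library) and exact (Clopper-Pearson) 95% intervals of read rate ratios, which cover counting error only, since PCR copies are not independent molecules. Since the deposited values are FPKM, the test was limma 3.58.1 (R 4.3.3; lmFit, eBayes with trend) on log2(FPKM + 1), with all 6 libraries in a single fit of 3 groups, for genes averaging 1 FPKM or more. P-values were adjusted by Benjamini-Hochberg over all 15127 genes and called under 0.05. The script was tested on simulated data. Differences on this scale understate changes of low genes that have reads in every library. For a gene with no read in a group, the size rests on the pseudocount and can exceed what the reads show. *Uba3* had a maturation difference of 7.64 on this scale, while its reads set a bound of at least 10.3-fold. Equal values of 0 also add no spread to the fit.

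The members and lists were chosen with earlier results of these data known. Named list genes were, per list and contrast, up to 3 with the largest change in each direction among called genes averaging 10 FPKM or more without overlap between the groups, and otherwise the 2 highest genes of the list (1 gene the rule chose is not reported here); *Nedd8*, *Cops5* and *Usp9x* were named outside it, after their values were seen. Of the list symbols, 6 older ones were matched through RefSeq synonyms. CPE sites were read from GENCODE M21 transcripts, and the sites written were equal to the GRCm38 genome at their coordinates. Alternatives were a pseudocount of 0.1, no filter or one at 5 FPKM, quantile normalization or centring to a median log2 ratio of 0, a replicate block, only the compared groups, no trend, precision weights from recovered reads, and leaving out each library.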

Additional observations from a re-analysis of the deposited data

How the results depend on the processing

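The replicate numbers did not pair the libraries: deviations of same-numbered libraries from their group means correlated at 0.0342, 0.0176 and 0.0189 over 2706 genes. With a replicate block 27 list genes were called at maturation (34 without it), 0 with treatment and 16 between Treat_MII and WT_FGO (21 without it). With only the compared groups in the fit, 0 list genes were called at maturation and 0 between Treat_MII and WT_FGO, with fewer libraries to estimate the spread; without the mean-variance trend 5 and 2 were called. Precision weights from recovered reads gave 36 between Treat_MII and WT_FGO. Leaving out 1 library, which leaves its group with a lone library assumed to vary like the others, gave 0 to 43 calls at maturation, 0 to 6 with treatment and 4 to 42 between Treat_MII and WT_FGO. With treatment these were 0 higher and 2 lower, and 1 and 5, without WT_MII library 1 or 2 (17 and 347, and 31 and 387, of all genes), and 5 and 3 higher with none lower without Treat_MII library 1 or 2 (363 and 398 higher and 0 lower of all genes), so the direction turned with the group that lost a library; between Treat_MII and WT_FGO they were 4 without either WT_MII library, 8 and 6 without Treat_MII library 1 or 2, and 30 and 42 without WT_FGO library 1 or 2. Centring on the median log2 ratio changed the split at maturation from 23 higher and 11 lower to 28 and 7, and that of all genes from 555 and 468 to 758 and 305. No called difference of a member changed sign under any alternative run, but calls were lost. Of 6 at maturation, 0 remained with only the compared groups and without either Treat_MII library, 1 without the trend, 5 with centring (*Rnf114* lost) and 5 with the replicate block (*Btrc* lost). Of 5 between Treat_MII and WT_FGO, 0 remained with only the compared groups and without the trend, and 3 with centring (*Skp1a* and *Rnf114* lost). The uncalled treatment differences of *Rfpl4* and *Rnf114* changed sign with centring (−0.08 and −0.04), and that of *Rbx1* without WT_MII library 1 (−0.82) or Treat_MII library 1 (−0.44). Quantile normalization gave a treatment difference of 0.07 for *Uchl1* and 0.05 for *Cul1*.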
